A study of Rattus norvegicus with 14 samples.

Results

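Integrins and laminins were followed in RNA of the caudal perirhinal cortex of rats that had met familiar objects, new objects or none. The members are the 25 integrin chain genes and 11 laminin chain genes whose symbols begin with Itga, Itgb, Lama, Lamb or Lamc, with the integrin-binding proteins Itgb1bp1, Itgb1bp2 and Itgb3bp left out. All 36 members were present in each of the 3 tables of group comparisons, which hold 17257 genes for the new-object group over Control, 17521 for Familiar over Control and 17461 for Familiar over the new-object group. The rats were male Lister Hooded rats, 14 in all, every one of them food restricted, and their tissue was taken as punches of bulk cortex. Group Familiar (5 rats) explored 1 set of objects through all training sessions of a bow-tie maze recognition task and was tested with that set. The other trained group, named the new-object group below, had 5 rats and was tested with objects it had never met. In training it met changing sets of objects, the later sets being regrouped from the earlier objects. The paper reports that Familiar rats explored less in the test session than new-object rats. The 4 rats of group Control were handled daily under the same restriction of food, without training or test. Both trained groups were killed 1 h after the test session, and the rats to be sequenced were picked partly by RNA quality and by behaviour in the test. The 2 comparisons with Control share the same 4 Control rats. Cages each housed 1 rat of group Familiar with 1 of the new-object group, and the tables hold no test that pairs cage mates.

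Integrins are receptors of the cell surface, each a pair of 1 alpha and 1 beta chain, that tie the cytoskeleton to the extracellular matrix or to other cells. Laminins are secreted trimers of an alpha, a beta and a gamma chain that polymerise into the basement membrane, the sheet of matrix around brain vessels and beneath the meninges. Laminin is itself a ligand for several integrins, and both families are known in nervous tissue for roles in vessel walls, glial endfeet, axon growth and the stability of synapses.

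Each value below is a fold change between 2 groups, put on the log2 scale, from the edgeR test that the authors ran after RUVSeq had removed 4 estimated sources of unwanted variation (k = 4). By the paper's account, k = 4 separated the compared groups best, though not fully for Familiar and the new-object group. A setting judged by group separation can favour small p values, so results at other settings are given as well. A gene counted as a differentially expressed gene (DEG) where its unadjusted p was under 0.01 and its fold change was a rise of at least 25% or a fall to 0.8 or below. The tables used here hold 0 columns of values per rat. The level of a member in each rat, the overlap of groups and the depth behind a gene are therefore not given. The error printed beside a log2 fold change is instead the one that its own p implies, namely the size of the change divided by the normal deviate of that p. Adjusted p values were obtained per table with the Benjamini-Hochberg procedure, across every gene listed. In bulk tissue, fewer cells of a type and less RNA per cell cannot be told apart.

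Few of the members differed from Control, and 1 of them, Itgb4, did so in both trained groups. In the new-object group 2 of 36 members were DEGs (5.56%), against 2.66% of all genes in that table. Itgb4 was the 1 higher member, where 1.09% of all genes were higher DEGs, and Itga9 was the 1 lower member, where 1.57% were lower DEGs. Counting p alone, 3 members had an unadjusted p under 0.01, against 3.82% of all genes. None of the members (0 of 36) had an adjusted p under 0.05, which 0.869% of all genes had, and the smallest adjusted p among them was 0.125. In this comparison 5 members had an unadjusted p under 0.05, a threshold at which the share of all genes was not computed. That count therefore has no background to be read against.

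In group Familiar 1 of 36 members was a DEG over Control (2.78%), against 3.72% of all genes. This was Itgb4 again, in the higher direction that 1.83% of all genes took, while 0 members were among the lower DEGs that made up 1.89% of the table. An unadjusted p under 0.01 was found for 2 members, against 5.11% of all genes. Itgb4 was also the 1 member with an adjusted p under 0.05, which 1.97% of all genes had. Since 1 member is 2.78% of the family, these shares lay near the background of their tables.

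Between the trained groups 0 of 36 members were DEGs, where 2.50% of all genes were, 1.36% higher in Familiar and 1.14% lower. By the authors' edgeR test, 0 members had an unadjusted p under 0.01 (3.36% of all genes), and 0 had an adjusted p under 0.05 (0.407% of all genes). An unadjusted p under 0.05 in that test was found for 1 member, with no share of all genes computed at that threshold. The smallest adjusted p of a member was 0.330. At 2 other numbers of removed sources, k = 3 and k = 5, 1 member (Lama5) was a DEG in this comparison.

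The median log2 fold change of the 36 members was -0.0080 in the new-object group over Control, where the median of all genes was -0.0092. It was 0.073 in Familiar over Control, beside 0.00032 for all genes, and 0.12 in Familiar over the new-object group, beside 0.012. Members above 0 numbered 18, 21 and 24 of 36 in these comparisons. Of all genes, 48.3%, 50.1% and 52.3% were above 0. Of the 11 laminins 3, 7 and 8 lay above 0, where the first and last comparisons share the new-object rats on opposite sides of the ratio. These shares are descriptions of the list and carry no test.

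**Figure D1:**
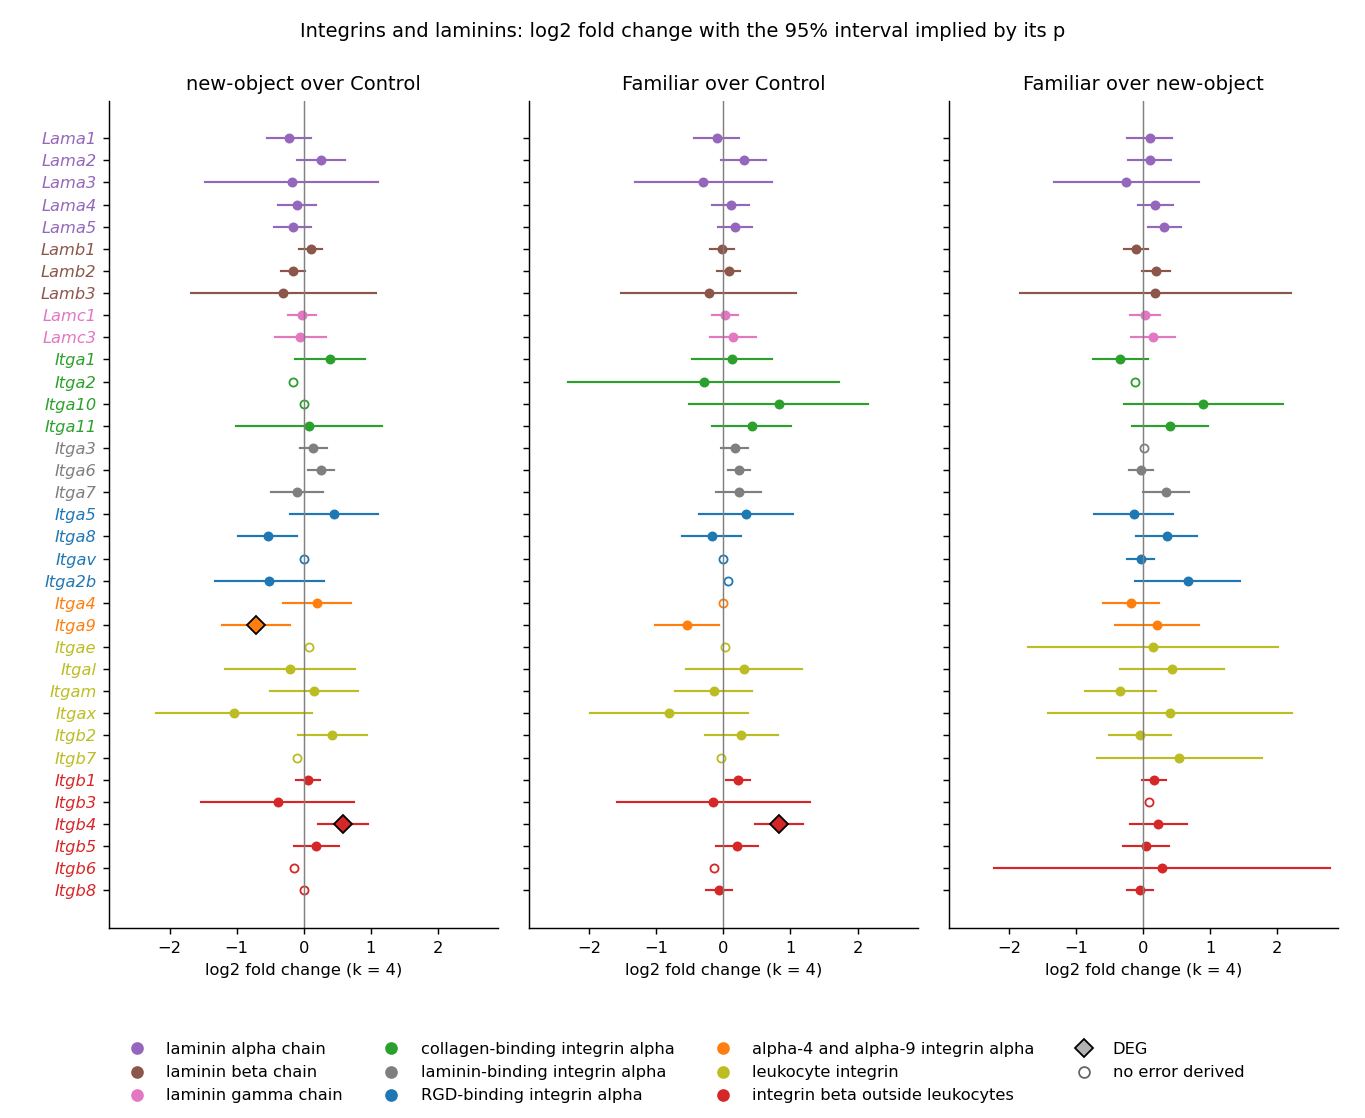
Log2 fold change at k = 4 of the members reported singly, in the 3 comparisons (horizontal axis), grouped and coloured by role, with bars for the 95% interval that each p implies. Diamonds are DEGs (Itgb4 in both comparisons with Control, Itga9 in the new-object group only) and open circles are members whose p was over 0.9, for which no error was derived; most intervals cross 0.

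Itgb4 encodes an integrin beta chain that pairs with the alpha chain Itga6 alone, and this pair is the laminin receptor of hemidesmosomes, the junctions that anchor epithelial cells to their basement membrane. Itgb4 (ENSRNOG00000005580) was higher than in Control by 0.59 on the log2 scale in the new-object group (error 0.191, 95% interval 0.22 to 0.97, adjusted p = 0.125), a fold change of 1.51, with an unadjusted p = 0.00200 in the authors' edgeR test. In group Familiar it was higher by 0.82 (error 0.181, 95% interval 0.47 to 1.18, adjusted p = 0.00111), a fold change of 1.77, with p = 5.58e-06 in the authors' test. Itgb4 thus rose in both trained groups by the DEG rule, and in Familiar at k = 4 also after adjustment over all genes. The direct comparison of Familiar with the new-object group gave 0.22 (error 0.216, 95% interval -0.20 to 0.65, adjusted p = 0.851). A difference between the trained groups in Itgb4 was therefore not detected, and the interval reaches from a slightly lower to a clearly higher level in Familiar.

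The size of the Itgb4 change in Familiar moved little with the number of sources removed, while its p moved by orders of magnitude. With upper quartile normalisation alone the log2 fold change over Control was 0.86, and the authors' test gave an unadjusted p = 0.0228 (adjusted p = 1). At k = 1, 2 and 3 it was 0.80, 0.80 and 0.81, and the unadjusted p in the authors' tests was 0.00737, 0.00456 and 0.00221. The adjusted p at these settings was 0.559, 0.245 and 0.117, so the call after adjustment was made at k = 4 alone. In the new-object group the log2 fold change was 0.88 at upper quartile alone and 0.59, 0.54 and 0.54 at k = 1, 2 and 3. The unadjusted p in the authors' tests was 0.0228, 0.0454, 0.0221 and 0.0115 in that order. Itgb4 was thus a DEG at 4 of 5 settings in Familiar and at k = 4 alone in the new-object group.

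Itga6, the chain with which Itgb4 pairs and which also pairs with Itgb1, was above Control in both trained groups by a smaller amount. Itga6 (ENSRNOG00000001518) is named here after its values were seen. Its log2 fold change was 0.26 in the new-object group (error 0.0977, 95% interval 0.069 to 0.45, adjusted p = 0.234), with an unadjusted p = 0.00768 in the authors' test. In Familiar it was 0.23 (error 0.0857, 95% interval 0.067 to 0.40, adjusted p = 0.155), with p = 0.00613 in the authors' test. Both rises were smaller than the 25% that the DEG rule asks for. Between the trained groups Itga6 gave -0.035 (error 0.0912, 95% interval -0.21 to 0.14, adjusted p = 1), an interval that leaves room for little change either way. Across settings its log2 fold change over Control stayed between 0.24 and 0.27 in the new-object group and between 0.22 and 0.24 in Familiar. At upper quartile alone the unadjusted p in the authors' tests was 0.155 and 0.137.

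Itgb1, the beta chain shared by most matrix-binding integrins, was also measured with a small error. Chosen after its values were seen, it gave 0.21 in Familiar over Control (error 0.0890, adjusted p = 0.253). It gave 0.065 in the new-object group over Control (error 0.0945, adjusted p = 0.943) and 0.16 in Familiar over the new-object group (error 0.0889, adjusted p = 0.578). None of these met the DEG rule.

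**Figure D2:**
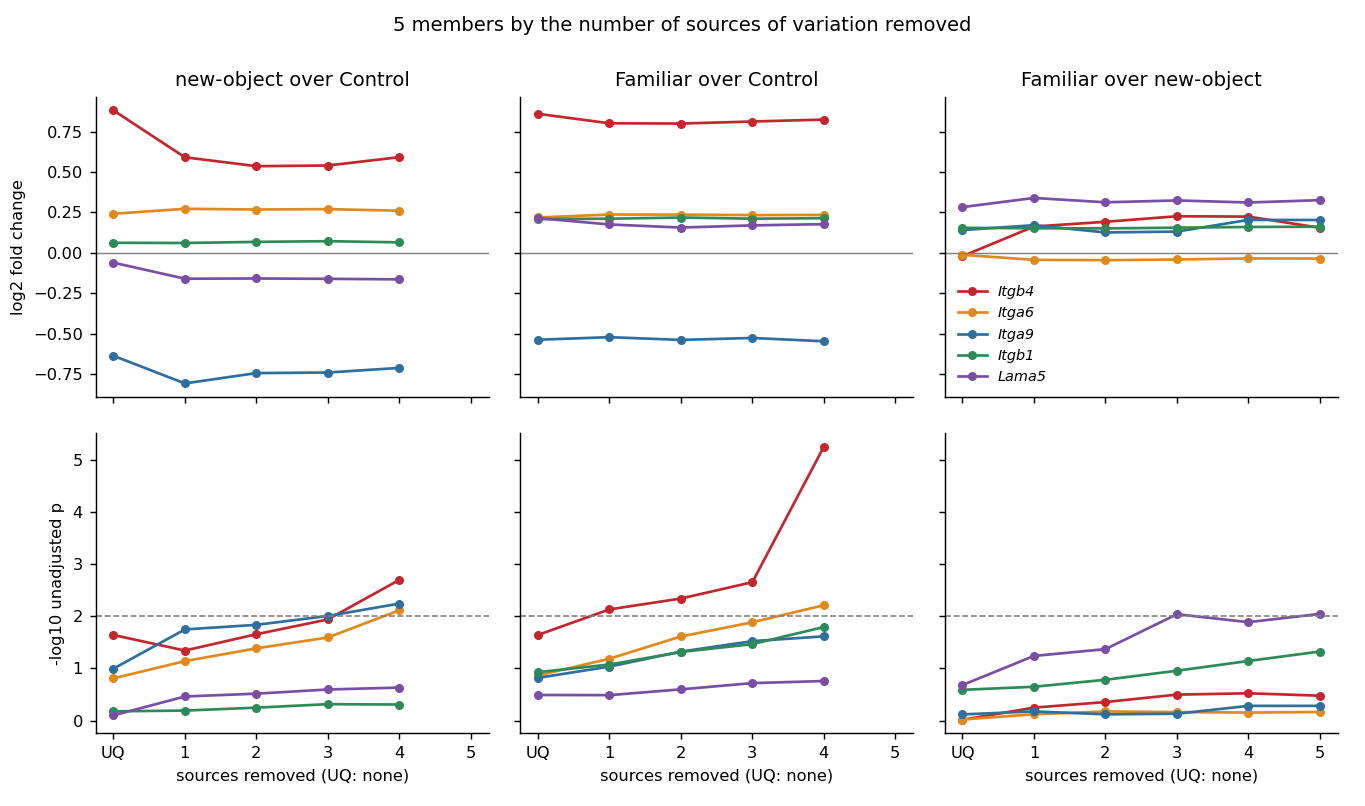
Log2 fold change (upper panels) and -log10 of the unadjusted p (lower panels) of 5 members against the number of sources of variation removed, from none (UQ, upper quartile alone) to 5, with 1 column of panels per comparison and a dashed line at an unadjusted p of 0.01. Fold changes moved little after the first source was removed, whereas p was mostly lower with more sources removed, most of all for Itgb4 in Familiar over Control, from 0.0228 to 5.58e-06.

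The other laminin-binding alpha chains, Itga3 and Itga7, did not pass the test in any comparison. Itga3, a receptor chain for laminins of vessel and epithelial basement membranes, gave 0.15 in the new-object group over Control, 0.17 in Familiar over Control and 0.010 between the trained groups. Itga7, best known as the laminin receptor chain of muscle, gave -0.099, 0.23 and 0.34 in the same order, the last with an adjusted p = 0.521. All 3 laminin-binding alpha chains lay above 0 in Familiar over Control, within a narrow span of 0.17 to 0.23.

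Itga9 was the 1 member that fell by the DEG rule, in the new-object group over Control. It pairs with Itgb1 and binds tenascin-C, osteopontin and the vessel adhesion molecule Vcam1. In the new-object group Itga9 (ENSRNOG00000043167) gave a log2 fold change of -0.71 over Control (error 0.257, 95% interval -1.22 to -0.21, adjusted p = 0.207), a fold change of 0.611, with an unadjusted p = 0.00570 in the authors' test. It was a DEG there at k = 3 and k = 4 and not at upper quartile alone, k = 1 or k = 2, with its log2 fold change between -0.81 and -0.64. In Familiar over Control it gave -0.55 (error 0.243, adjusted p = 0.307), which did not meet the rule. Familiar over the new-object group gave 0.20 (error 0.319, adjusted p = 0.956), so a difference between the trained groups was not detected. The other chain of this class, Itga4, which pairs with Itgb1 or Itgb7 on leukocytes, gave 0.20, -0.0010 and -0.19 in the 3 comparisons.

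Of the alpha chains that recognise the RGD motif of fibronectin and vitronectin, Itga8 alone had an unadjusted p under 0.05, and it is named after its values were seen. Itga8, a receptor chain for nephronectin that pairs with Itgb1, gave -0.54 in the new-object group over Control (error 0.227, adjusted p = 0.332). It gave -0.17 in Familiar over Control (adjusted p = 0.881) and 0.35 between the trained groups (adjusted p = 0.697). Itgav, the alpha chain of the vitronectin receptors, was nearly level, with 0.010, -0.012 and -0.041 in the 3 comparisons. Itga5, the fibronectin receptor chain, gave 0.45, 0.34 and -0.15, and Itga2b, the platelet fibrinogen receptor chain, gave -0.51, 0.070 and 0.66, all with an unadjusted p over 0.05.

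Among the collagen-binding alpha chains none passed the test, and Itga10 had high values with wide intervals in both comparisons of Familiar. Itga10 gave 0.82 in Familiar over Control (error 0.681, 95% interval -0.51 to 2.16, adjusted p = 0.727) and 0.90 in Familiar over the new-object group (error 0.602, adjusted p = 0.694). Its value in the new-object group over Control was 0.0057 (adjusted p = 1). Across settings Itga10 ran from 0.66 to 1.51 in Familiar over Control and from 0.90 to 1.48 in Familiar over the new-object group. At k = 4 the fold changes of Itga10 and Itgb4 in Familiar over Control were both 1.77, with errors of 0.681 and 0.181. Itga1, a receptor chain for collagen IV that pairs with Itgb1, gave 0.39 in the new-object group over Control (adjusted p = 0.686) and 0.12 in Familiar over Control (adjusted p = 0.983). Between the trained groups it had the lowest value of any member, -0.34 (error 0.210, adjusted p = 0.640). Itga11, a receptor chain for fibrillar collagens, gave 0.081, 0.42 and 0.40, and Itga2 gave -0.15, -0.29 and -0.13, with no unadjusted p under 0.05.

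Among the leukocyte integrins none passed the test in any comparison. Itgax, the alpha chain of the dendritic and myeloid cell receptor known as CD11c, had the lowest value of any member over Control, at -1.04 in the new-object group (error 0.596, 95% interval -2.20 to 0.13, adjusted p = 0.580). In Familiar it gave -0.81 over Control (error 0.601, adjusted p = 0.664), and between the trained groups 0.40 (error 0.929, adjusted p = 1). Itgam, the alpha chain of the complement receptor of microglia and macrophages, gave 0.16, -0.15 and -0.34. Itgb2, the beta chain with which Itgal, Itgam and Itgax all pair, gave 0.43 in the new-object group over Control (adjusted p = 0.628), 0.27 in Familiar over Control and -0.054 between the trained groups. Itgal, the alpha chain of the lymphocyte receptor for Icam1, gave -0.20, 0.31 and 0.43. Itgae and Itgb7, the chains of the receptor that holds T cells in epithelia, lay between -0.11 and 0.54.

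The remaining beta chains pair with Itgav, and Itgb3 also with Itga2b. Itgb5 gave 0.19, 0.21 and 0.035 in the new-object group over Control, Familiar over Control and Familiar over the new-object group, and Itgb8, the astrocyte and radial glial chain that activates latent TGF-beta, gave 0.012, -0.064 and -0.052. Itgb3 gave -0.39, -0.15 and 0.084, with errors of 0.581 and 0.734 in the comparisons with Control. Itgb6, known mainly from epithelia, gave -0.14, -0.15 and 0.28 and was the least precisely measured member, with an error of 1.28 in the last of these.

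No laminin chain was a DEG at k = 4 in any of the 3 comparisons. The chain with the smallest p was Lama5, an alpha chain of the basement membrane of mature vessels, which is named after its values were seen. Lama5 (ENSRNOG00000053691) was higher in Familiar than in the new-object group by 0.31 (error 0.125, 95% interval 0.066 to 0.56, adjusted p = 0.330), with an unadjusted p = 0.0129 in the authors' test. Its fold change, 1.24, was just under the rise that the rule asks for. At k = 3 and k = 5 Lama5 met the rule with log2 fold changes of 0.32 and 0.33, and the unadjusted p in the authors' tests was 0.00913 and 0.00899. Over Control it gave -0.16 in the new-object group (adjusted p = 0.792) and 0.18 in Familiar (adjusted p = 0.664), values on either side of 0 with intervals that include it.

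The other alpha chains did not pass the test. Lama4, the second alpha chain of vessel walls, gave -0.10, 0.11 and 0.18 in the new-object group over Control, Familiar over Control and Familiar over the new-object group. Lama2, the alpha chain of muscle and of the glial limiting membrane, gave 0.26 (adjusted p = 0.715), 0.30 (adjusted p = 0.504) and 0.097. Lama1, found at the pial surface, gave -0.22, -0.10 and 0.093, and Lama3, an epithelial chain, gave -0.17, -0.30 and -0.25 with errors over 0.5.

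No beta or gamma chain was a DEG either. Lamb2, a chain of vessel walls and of the neuromuscular synapse, gave -0.16 in the new-object group over Control (error 0.0892, adjusted p = 0.557), 0.075 in Familiar over Control (adjusted p = 0.844) and 0.19 between the trained groups (error 0.107, adjusted p = 0.581). Lamb3 gave -0.30, -0.22 and 0.18 with errors of 0.703, 0.666 and 1.03, so that nothing can be said of it at this precision. Lamc1, the gamma chain of most laminins, was nearly level at -0.022, 0.021 and 0.027 with errors of 0.106, 0.0967 and 0.112. Lamb1 gave 0.11, -0.026 and -0.11 and Lamc3 gave -0.047, 0.15 and 0.14.

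The members differed widely in how large a change could have been called. An error could be derived for 29, 30 and 33 of the 36 members in the new-object group over Control, Familiar over Control and Familiar over the new-object group. The other 7, 6 and 3 members had a p over 0.9. The median error was 0.197, 0.184 and 0.214, beside 0.182, 0.179 and 0.179 for all genes. The errors ran from 0.0880 to 0.703, from 0.0857 to 1.03 and from 0.0889 to 1.28. For 12, 16 and 14 members a log2 change under 0.5 would have reached an unadjusted p of 0.01, and for 7, 7 and 9 members a change over 1 would have been needed. The precise members included Itga6, Itgb1, Lamb1, Lamb2 and Lamc1, and the imprecise ones Itga10, Itgax, Itgb6 and Lamb3, for which the absence of a call says little.

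**Figure D3:**
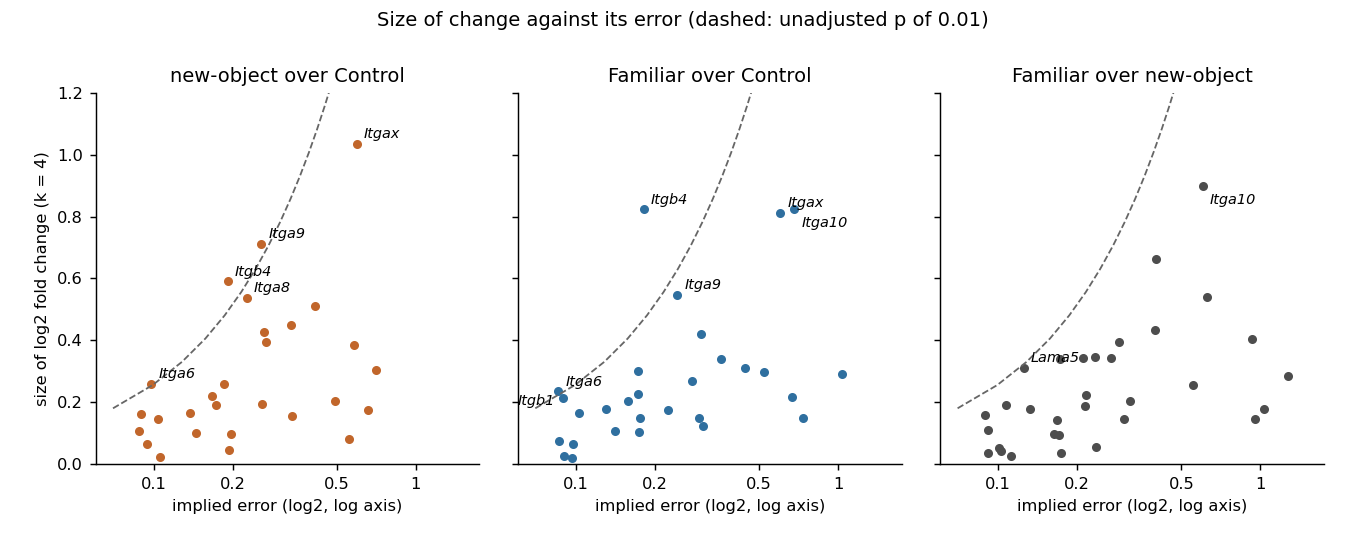
Size of the log2 fold change at k = 4 (vertical axis) against the error that its p implies (horizontal log axis) for the members reported singly that have a derived error, with 1 panel per comparison and a dashed line where the unadjusted p is 0.01. Itgb4, Itga9 and Itga6 lie above the line in the new-object group over Control and Itgb4 and Itga6 in Familiar over Control, while Itgax in the former (error 0.596) and Itga10 in the latter (error 0.681) lie below it with changes at least as large as that of Itgb4.

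The partners of integrins and laminins were read from lists of genes by known role, for context. Among 20 further components of the basement membrane, 0 were DEGs in the new-object group over Control, 3 were higher in Familiar over Control (1.83% of all genes) and 2 were higher in Familiar over the new-object group (1.36% of all genes). Smoc1, a calcium-binding basement membrane protein, was higher in Familiar by 0.74 over Control (error 0.191, adjusted p = 0.0111) and by 0.88 over the new-object group (error 0.214, adjusted p = 0.0214). Hspg2, which encodes perlecan, the large heparan sulfate proteoglycan of vessel walls, was higher in Familiar by 0.53 over Control (error 0.191, adjusted p = 0.144) and by 0.50 over the new-object group (error 0.183, adjusted p = 0.245). Col4a6, a collagen IV chain, was higher in Familiar over Control by 1.24 (error 0.389, adjusted p = 0.0639). It also lay above Control in the new-object group, by 0.73 (error 0.369), without meeting the DEG rule. The direct comparison of Familiar with the new-object group gave 0.13 for Col4a6, which was no DEG there. With upper quartile normalisation alone Col4a6 gave 1.05 in the new-object group over Control and 0.88 in Familiar over Control. At upper quartile alone 1 gene of this list, Smoc1, was a DEG in Familiar over Control and 0 were in Familiar over the new-object group. The list median was -0.015, 0.17 and 0.25 in the 3 comparisons, in the order used above.

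The laminin receptors other than integrins, 21 genes measured and among them dystroglycan (Dag1), held 0 DEGs in all 3 comparisons, with medians of 0.011, -0.044 and -0.10. Dag1 itself gave 0.011, 0.083 and 0.064. Among 45 genes for integrin activators and the adaptors that link integrins to actin, 0, 3 and 0 were DEGs, the 3 being 6.67% of the list beside 3.72% of all genes. These 3, in Familiar over Control, were Crk, an adaptor downstream of paxillin, higher by 0.34 (error 0.0894, adjusted p = 0.0143), Lims1, the PINCH adaptor that binds integrin-linked kinase, higher by 0.86 (error 0.232, adjusted p = 0.0169), and Rsu1, a binding partner of PINCH, which gave -0.59 (error 0.213, adjusted p = 0.147). At upper quartile alone 0 genes of this list were DEGs in Familiar over Control, where Crk, Lims1 and Rsu1 each had an adjusted p = 1, and at k = 1 there was 1. The log2 fold changes of Crk, Lims1 and Rsu1 at upper quartile alone were 0.35, 0.81 and -0.59. The median of this list was 0.0025, 0.027 and 0.013, close to that of all genes in each comparison. Of this list, 3 genes had an adjusted p under 0.05 in Familiar over Control (1.97% of all genes), Crk and Lims1 among them. Its values there ran from -0.59 to 0.86. The single genes Tln1 (a talin), Fermt2 (a kindlin) and Ilk (integrin-linked kinase), named for their role, gave 0.022, 0.075 and -0.055 in that comparison.

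Among 18 integrin-associated membrane proteins 1 gene (5.56%) passed the rule, beside 3.72% of all genes in Familiar over Control and 2.50% in Familiar over the new-object group. This was Icam1, the endothelial ligand of the leukocyte integrins, which was higher in Familiar by 1.43 over Control (error 0.340, adjusted p = 0.00398) and by 0.84 over the new-object group (error 0.302, adjusted p = 0.235). At upper quartile alone it gave 1.57 in Familiar over Control (adjusted p = 0.532). At that setting, k = 1 and k = 2 this list held 1 DEG in Familiar over Control and 0 genes with an adjusted p under 0.05. Icam1 gave 0.28 in the new-object group over Control (adjusted p = 0.964). Its receptor chains Itgal, Itgam and Itgb2 did not pass the test in Familiar, with 0.31, -0.15 and 0.27 over Control.

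**Figure D4:**
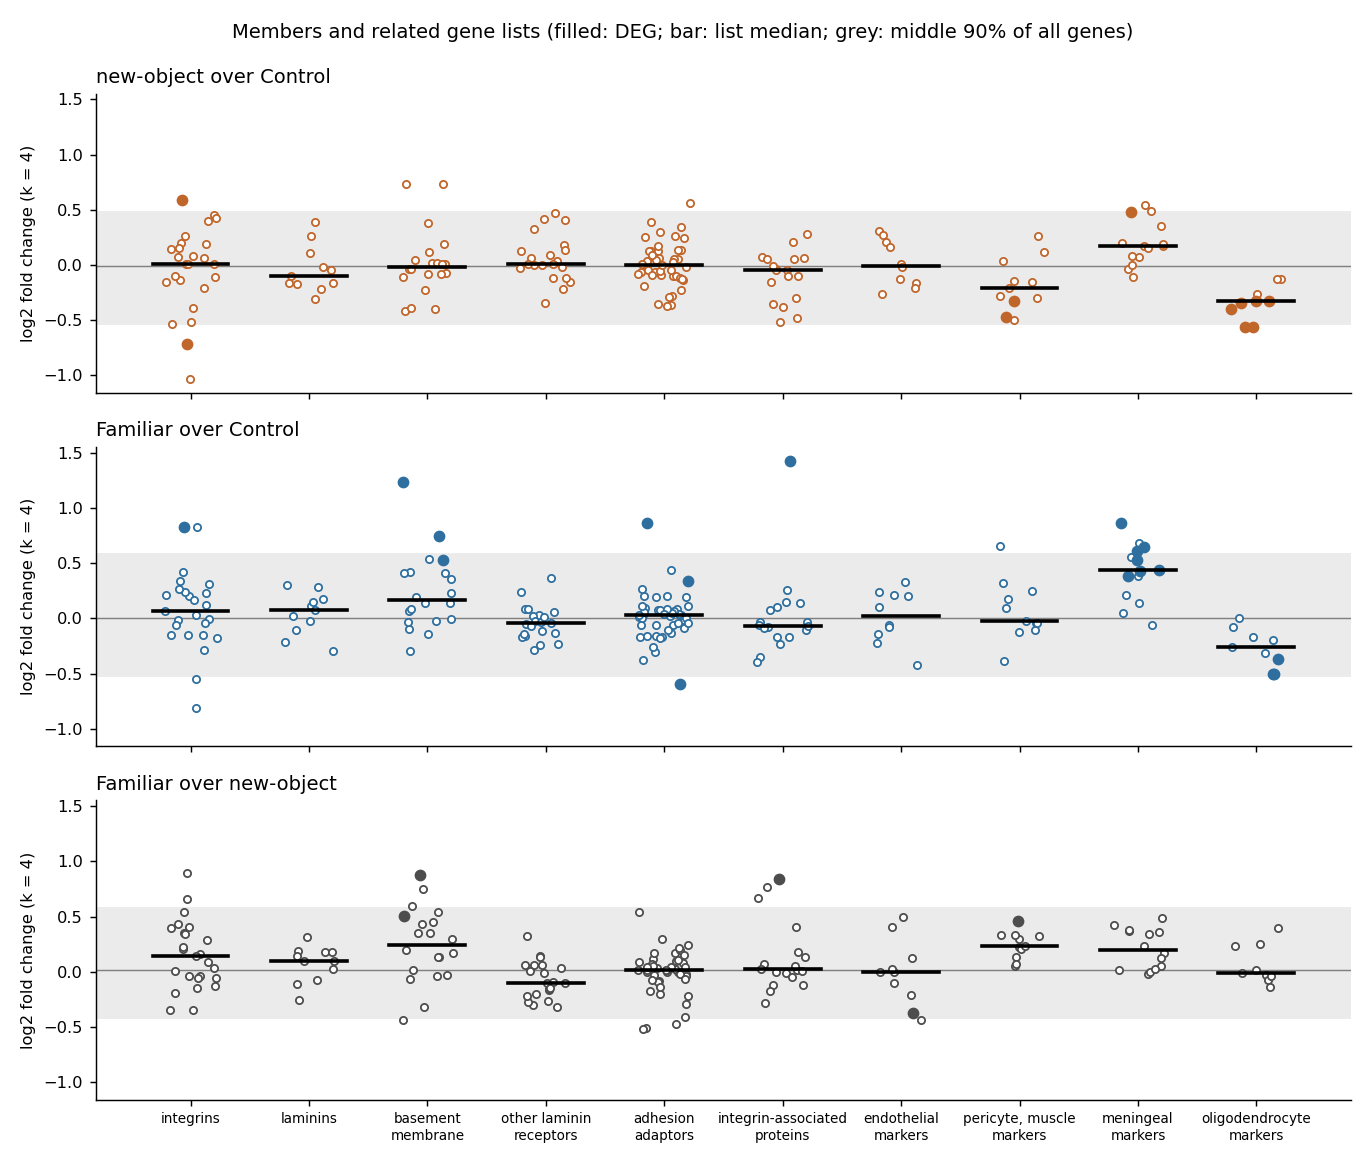
Log2 fold change at k = 4 (vertical axis) of the integrins, the laminins, 4 lists of partner genes and 4 lists of cell type markers in each comparison. Points are genes, filled where the gene is a DEG, black bars are list medians and the grey band holds the middle 90% of all genes; meningeal markers sit above the band's centre in Familiar over Control and oligodendrocyte markers below it in both comparisons with Control.

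Markers of the cell types that make integrins and laminins moved in part with the groups. Of 14 meningeal fibroblast markers, 7 were DEGs in Familiar over Control, all higher (1.83% of all genes), and 13 of 14 lay above 0 with a median of 0.43. They were Col1a1, Col1a2, Col3a1, Igf2, Islr, Ptgds and Slc22a6, with log2 fold changes from 0.38 to 0.87. With other numbers of sources removed, 0 of the 14 were DEGs at upper quartile alone and at k = 1, 1 at k = 2 and 4 at k = 3, while the list median at upper quartile alone and k = 1 to 3 was also above 0. In the new-object group over Control 1 of the 14 was a DEG, Igf2, higher by 0.48 (adjusted p = 0.181). There 12 of the 14 lay above 0, and the list median was 0.18. At upper quartile alone the list median was 0.38 in that comparison and 0.51 in Familiar over Control. In Familiar over the new-object group 0 of the 14 were DEGs at k = 4 (2.50% of all genes), with a median of 0.20. Of 9 oligodendrocyte markers, 6 were DEGs in the new-object group over Control (1.57% of all genes were lower) and 3 in Familiar over Control (1.89%), all lower, with medians of -0.32 and -0.26. At upper quartile alone 0 and 2 of the 9 were DEGs. Itgb4 was higher in both of these comparisons, and the part of meningeal or oligodendrocyte RNA in that result was not tested.

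Of 10 endothelial markers measured, 0 were DEGs over Control in either trained group, with medians of -0.0050 and 0.025, and Slco1a4, a transporter of the blood-brain barrier, gave -0.37 in Familiar over the new-object group and was a DEG there (error 0.121, adjusted p = 0.151). Of 11 pericyte and smooth muscle markers, 2 (18.2%) were DEGs in the new-object group over Control, both lower, against 2.66% of all genes. They were Notch3, with -0.33 (error 0.0910, adjusted p = 0.0390), and Abcc9, with -0.47 (error 0.176, adjusted p = 0.227). At upper quartile alone and at k = 1 this list held 0 DEGs in that comparison, and 1 at k = 2 and at k = 3. All 11 lay above 0 in Familiar over the new-object group, where the median was 0.23 and Vtn (vitronectin, a ligand of Itgav) was a DEG at 0.46 (error 0.164, adjusted p = 0.227). The laminins and basement membrane partners had positive medians in the same comparison, 0.097 and 0.25. Meningeal fibroblast markers also lay above 0 there for 12 of 14 genes, with a median of 0.20. The part of pericytes or meningeal fibroblasts in the laminin and basement membrane medians was not tested. Markers of microglia (14 genes), astrocytes (9) and neurons (9) held 0 DEGs in all 3 comparisons, since no change reached the fold threshold with an unadjusted p under 0.01. Astrocyte markers nevertheless lay above 0 for 9 of 9 genes in the new-object group over Control (median 0.13) and for 7 of 9 in Familiar over Control (median 0.098). The astrocyte connexin Gja1, named after its values were seen, gave 0.22 (adjusted p = 0.0354) and 0.23 (adjusted p = 0.00937) in these comparisons, with 0 astrocyte markers at an adjusted p under 0.05 at upper quartile alone or k = 1 to 3. In the same comparisons Itgb4 and Itga6 were also above Control, and the part of astrocytes in those values was not tested. Among the neuronal markers Syt1, a synaptic vesicle calcium sensor likewise named after its values were seen, gave -0.14 in Familiar over Control (adjusted p = 0.0201), again with 0 such markers at the other settings, and 7 of 9 neuronal markers lay below 0. The medians of the 14 microglial markers were -0.053, 0.044 and -0.0040. Of the choroid plexus list 3 of 7 genes were measured, and of the blood list of 9 genes 3, 2 and 3 were measured in the order above, with 0 DEGs among them. The tables give no level of any marker within a group.

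In the RefSeq annotation of assembly GRCr8, a later build than the Rnor_6.0 to which the reads were mapped, all 36 members were found by symbol. Itgb4 and Itga6 were among 18 members whose span overlaps no other gene. Another 6 overlap a protein-coding gene, namely Itga1 with Pelo, Itga4 with Cerkl, Itga7 with Mettl7b, Itgae with Haspin, Itgb1 with an unnamed locus and Itgb7 with Znf740, and 12, Itga9 among them, overlap non-coding genes or pseudogenes only. Whether the counting used strand is not given in the sources used here, so reads of such overlapping genes may not have been separated. In that annotation Itga1 and Itga2, and Itgam and Itgax, are neighbours with 0 protein-coding genes between them. Itga1 and Itga2 gave 0.39 and -0.15, and Itgam and Itgax 0.16 and -1.04, in the new-object group over Control.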

How the data were processed

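Ribosomal RNA was removed from the total RNA of 14 rats, which was then sequenced on an Ion Proton instrument. The authors mapped reads to Rnor_6.0 with TopHat and then Bowtie2, counted unique reads per gene with HTSeq, left out genes with few reads and compared groups with edgeR after RUVSeq. The 3 deposited tables hold linear ratios (fold changes) and unadjusted p values from the authors' tests, at upper quartile normalization alone and with k sources of variation removed. These columns are the only measurements in the tables, so they were used. With 0 columns of values per rat, depth, counting intervals, fits to counts, a replicate block and leaving out a rat could not be had. Nothing in the tables shows the spread between rats beyond what a p value carries.

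From these, log2 fold changes, Benjamini-Hochberg adjusted p values over all genes of a table, and errors (for p up to 0.9) with 95% intervals were computed. The scripts were tested on simulated data. Members, gene lists and tests were chosen with earlier results of these data known. Members given in full are the DEGs at k = 4 and the largest rise and fall in each comparison (Itgb4, Itga9, Itga10, Itgax, Itga1); of the lists, DEGs are named. Alternatives were the other settings (upper quartile alone, k = 1 to 3, and k = 5 for Familiar over the new-object group), the adjusted p, no fold threshold, a fall threshold of 0.75 and precisely measured members alone. The settings for the related lists were added after the data were seen. The RefSeq annotation is of another assembly, so no positions are given. Lamb4 and Itgad were not analysed here, and 1 member enters the counts and medians but is not reported singly. Versions were matplotlib 3.10.9, pandas 2.3.3, scipy 1.17.1, numpy 2.4.6 and Python 3.11.15.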

Additional observations from a re-analysis of the deposited data

Results flagged for a closer look

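No integrin or laminin differed between the trained groups by the DEG rule at k = 4. In the related lists 5 genes did, in the direct comparison of Familiar over the new-object group. Smoc1 was higher in Familiar by 0.88 (adjusted p = 0.0214) and is the 1 gene of these with an adjusted p under 0.05. Icam1 was higher by 0.84 (adjusted p = 0.235), Hspg2 by 0.50 (adjusted p = 0.245) and Vtn by 0.46 (adjusted p = 0.227). Slco1a4 gave -0.37 (adjusted p = 0.151). At upper quartile alone none of the 5 was a DEG in this comparison, and all had an adjusted p of 1. The unadjusted p in the authors' tests there was 0.0116 for Smoc1, 0.0160 for Icam1, 0.0974 for Hspg2, 0.0299 for Vtn and 0.0302 for Slco1a4. The log2 fold changes at that setting were 0.84, 0.98, 0.43, 0.49 and -0.41 in the same order.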

How the results depend on the processing

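The number of member DEGs in the new-object group over Control was 2 at k = 4, 0 at upper quartile alone, at k = 1 and at k = 2, 1 at k = 3, and 0 where the rule was an adjusted p under 0.05. There Itgb4 kept its direction at all 5 settings with p from 0.00200 to 0.0454, and Itga9 kept its direction with p from 0.00570 to 0.101. In Familiar over Control the count was 1 at k = 4, 0 at upper quartile alone and 2 with an unadjusted p under 0.01 and no fold threshold, which admits Itga6. In Familiar over the new-object group it was 0 at k = 4 and 1 (Lama5) at k = 3 and at k = 5. The cause of these changes with k was not tested. The member median in the new-object group over Control was -0.0080 at k = 4 and -0.062 at k = 3. In Familiar over Control it was 0.073, and 0.16 over the members with an error at or below that of the median gene, a choice that drops members with p over 0.9. Across settings 7, 5 and 4 of the 36 members took both signs in the new-object group over Control, Familiar over Control and Familiar over the new-object group, and 0 of these had an unadjusted p under 0.05 at any setting. Among the 10 members followed singly, the sign turned for Itga10 in the new-object group over Control (0.0057 at k = 4, -0.040 at upper quartile alone) and for Itgb4 in Familiar over the new-object group (0.22 and -0.021). Of the values of these 10 members under alternatives, 118 kept their direction and their side of the threshold, 8 lost the threshold and 2 gained it. Most of the 118 were no DEG at k = 4 or at the alternative. All 8 losses fell on the calls made at k = 4, namely Itgb4 over Control in both trained groups and Itga9 in the new-object group. Itgb4 in the new-object group lost the threshold at every other setting. Counts over the related lists were recomputed after the data were seen. At k = 4 they held 9, 17 and 5 DEGs in the 3 comparisons. The counts were 1, 4 and 0 at upper quartile alone, 0, 6 and 1 at k = 1, then 2, 9 and 1 at k = 2, and 6, 13 and 5 at k = 3. At k = 5 there were 9 in Familiar over the new-object group. The ratios of the 3 tables did not follow exactly from each other at k = 4, with a median gap of 0.038 on the log2 scale over members and 0.034 over all 16871 shared genes, and with a largest gap of 0.476, for Itgb7. No paired analysis was possible because the tables hold no values per rat, although Familiar and new-object rats were caged in pairs, and for the same reason leaving out single rats was not run. Depth is not given in these tables, so limits rest on the implied errors.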
